A study of Mus musculus with 9 samples.

Results

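The genes followed here encode the enzymes that carry sugar phosphates through glycolysis outside its hexokinase, phosphofructokinase, aldolase, glyceraldehyde phosphate dehydrogenase and pyruvate kinase steps. The 7 members were chosen by name, by a rule that used no measured value, from the 38293 genes of a count table of mouse E14 embryonic stem cells. Earlier results of these data were known when they were chosen. They are Gpi1 (glucose-6-phosphate isomerase), Tpi1 (triosephosphate isomerase), Pgk1 (phosphoglycerate kinase), Pgam1 (phosphoglycerate mutase) and the enolase isozymes Eno1, Eno2 and Eno3. Gpi1 acts on hexose phosphates, before the sugar is split, so it belongs to the lower pathway only in the loose sense of the list's name.

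In glycolysis Gpi1 turns glucose 6-phosphate into fructose 6-phosphate, and Tpi1 interconverts the triose phosphates so that the whole split sugar stays in the pathway. Pgk1 makes ATP from bisphosphoglycerate, Pgam1 moves the remaining phosphate, and enolase removes water to form phosphoenolpyruvate. Eno1 is the isozyme of most cell types, Eno2 is typical of neurons and Eno3 of striated muscle. Pluripotent stem cells are known for strong glycolysis, and the balance between glycolysis and respiration is known to shift as they leave the naive state.

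RNA-seq was done in 3 culture states of the E14 line (129/Ola strain), with 3 libraries each. Naive cells (mESC-2i) grew on gelatin in N2B27 with 1 µM of the MEK inhibitor PD0325901, 3 µM of the GSK3 inhibitor CHIR99021 and 10 ng/mL mLIF. Serum cells (mESC-ser) grew on gelatin in DMEM with 15% FBS and 10 ng/mL mLIF. Epiblast-like cells (EpiLC) were made from naive cells on fibronectin in N2B27 with 20 ng/mL activin A, 12 ng/mL bFGF and 1% KSR. No state carried a deletion or transgene by its labels, and all 3 came from the same line. Medium and time in culture differ together between the states, and for EpiLC the coating differs with them. The labels do not say whether the libraries of a state came from separate cultures, so p-values measure only the spread between these libraries, which may be technical.

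The libraries held 7187576 to 16829549 counts over genes. The third libraries of mESC-2i and mESC-ser stood apart from their 2 partners: over all genes a chi-square per degree of freedom was 12.6 and 28.3 against them in mESC-2i and at least 10.9 in mESC-ser, where the other replicate pairs gave 1.61 to 4.53. The summed level of 5 pluripotency markers was 1900 to 2419 TMM-scaled CPM (counts relative to library size) in mESC-2i, 2189 to 2222 in mESC-ser and 1655 to 1752 in EpiLC, none of them was at 0, and Pou5f1 was the highest in each state. The sum held opposite moves: from mESC-2i to EpiLC Nanog went from 650 to 61.3 CPM and Sox2 from 468 to 61.8, while Lin28a went from 134 to 457 and Dppa4 from 37.3 to 120.4. In bulk libraries fewer cells of a type and less RNA per cell cannot be told apart.

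Before any level is read, 5 of the members need a caution about shared sequence, because the mouse genome holds processed pseudogenes and retrogenes of glycolysis enzymes. The reads were 50 bases long. Every coding 50-base stretch of Pgk1 (chrX:106187100-106203699, plus strand, GRCm38) was found unchanged in another annotated transcript, as was every one of Pgam1 (chr19:41911923-41918660, plus strand). For Eno1 (chr4:150236721-150248879, plus strand) the share of coding stretches found elsewhere was 75.1%, for Gpi1 (chr7:34201330-34230336, minus strand) 30.7% and for Tpi1 (chr6:124810586-124814296, minus strand) 13.7%. Eno2 (chr6:124760053-124769673, minus strand) and Eno3 (chr11:70657202-70662513, plus strand) shared none with a copy.

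The enolase isozymes, in contrast to such copies, differ from each other along their coding sequence. Their coding sequences of 1302 bases before the stop codon were 75.1% identical between Eno1 and Eno2 and 76.7% identical for the other pairs. The most alike 50-base stretch that lies within 1 exon in all 3 genes is printed next, with the 6 positions that vary in capitals. It covers coding bases 448 to 497, at chr4:150245118-150245167 (plus strand) in Eno1, chr6:124766275-124766324 (minus strand) in Eno2 and chr11:70660663-70660712 (plus strand) in Eno3.
Eno1: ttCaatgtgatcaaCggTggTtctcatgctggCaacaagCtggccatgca
Eno2: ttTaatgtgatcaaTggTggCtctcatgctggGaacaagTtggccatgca
Eno3: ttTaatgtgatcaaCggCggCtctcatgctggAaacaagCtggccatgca
Even here Eno2 differed from Eno1 at 5 bases and Eno3 at 4, so a read without errors separates the isozymes.

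The deposited counts showed that reads of shared sequence had been counted at the copies. Pgk1-rs7 and Gm5537, which lie on other chromosomes, held almost equal counts, with a ratio of 0.921 to 1.02 over the 9 libraries. Together they took 48.0% to 50.5% of the counts of Pgk1 plus copies in mESC-2i, 46.3% to 47.0% in mESC-ser and 58.8% to 60.3% in EpiLC. For Pgam1 the copies Pgam1-ps2, Pgam1-ps1 and Gm11203 took 43.5% to 45.0%, 44.1% to 44.7% and 47.9% to 48.7% in the same order. The EpiLC range lay above both others for each of these genes. For Eno1 the copies, mainly the retrogene Eno1b and the pseudogene Gm4735, took 57.6% to 58.9% in every library, with no separation between the states. The Gpi1 copy Gm1840 took 5.14% to 5.87% in mESC-2i, 4.91% to 5.24% in mESC-ser and 3.56% to 3.90% in EpiLC. Reads made by the copies themselves and reads of the parent gene placed at a copy cannot be told apart in gene totals. Of the Tpi1 copies only Tpi-rs8 is among the counted genes, at 0 in every library, and it shares no 50-base stretch with Tpi1. The 2 copies that do share stretches, Tpi-rs11 (83) and AC132091.1 (34), are not among them. Tpi1 reads placed at those 2 therefore cannot be seen. Copies of other members are missing too, since 2 of 6 were counted for Pgk1, 3 of 4 for Pgam1 and 4 of 9 for Eno1. Those missing include AC131796.1 for Pgk1 (211 shared stretches) and Gm5855 (136) and Gm8483 (96) for Eno1. Shares and sums with copies cover the counted copies only.

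**Figure D1:**
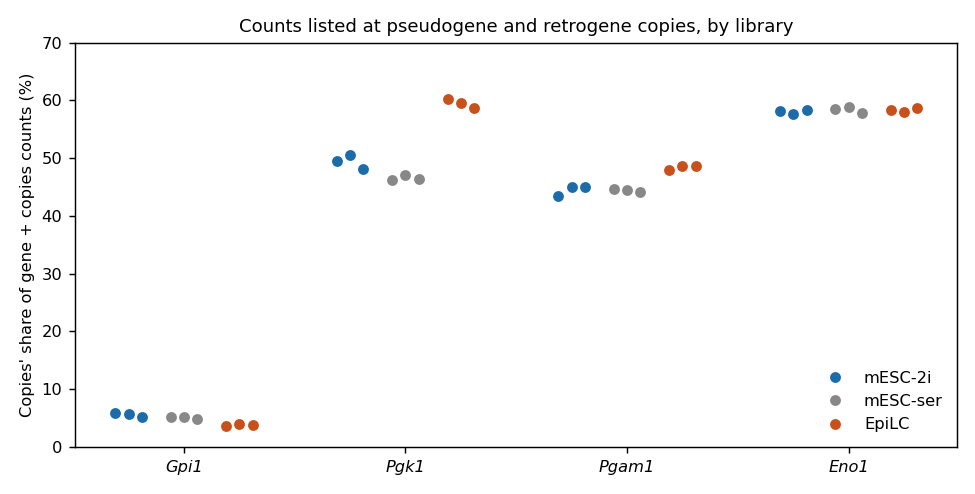
Share of the counts of a gene plus its copies that is listed at the copies, in percent (vertical axis), for Gpi1, Pgk1, Pgam1 and Eno1 (horizontal axis), with 1 point per library coloured by culture state. The EpiLC points of Pgk1, at 58.8% to 60.3%, lie above those of mESC-2i and mESC-ser, whereas the Eno1 points of all states lie between 57.6% and 58.9%.

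Per length of the longest coding mRNA, Eno1 was the highest member in every state, with 1189 ± 47.3 RPKM in EpiLC (TMM-scaled CPM per kilobase, mean ± SD of 3 libraries), 540 ± 21.6 in mESC-ser and 386 ± 19.2 in mESC-2i. In mESC-2i it was followed by Gpi1 at 244 ± 4.87, Tpi1 at 196 ± 26.1, Pgam1 at 189 ± 23.0 and Pgk1 at 160 ± 12.8 RPKM. The ranges of Tpi1 and Pgam1 overlapped there, as did those of Pgam1 and Pgk1. In EpiLC Tpi1 came next to Eno1 at a mean of 482 RPKM (454 to 503), followed by Pgam1 at 254 ± 6.94 and Gpi1 at 248 ± 12.1, whose ranges overlapped, and by Pgk1 at 200 ± 8.20. In mESC-ser Pgam1 stood second at 219 ± 11.5 RPKM, and Gpi1 (163 ± 7.87), Tpi1 (154 ± 6.42) and Pgk1 (150 ± 21.1) overlapped with each other. Eno3 and Eno2 were far lower in all states, Eno3 at 3.39 to 14.5 and Eno2 at 1.11 to 1.41 RPKM as state means. The order depended on the treatment of copies and length, as settings chosen after seeing the data. With copies added, the EpiLC levels of Pgk1 (494 ± 28.1), Pgam1 (492 ± 10.8) and Tpi1 (482 ± 24.9 RPKM) came together. With the merged length of all exons, Eno1 in mESC-2i dropped to 145 RPKM, below Pgam1 at 169.

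In mESC-ser against mESC-2i the members moved in different directions. Gpi1 fell, Eno3 rose, and the other 5 did not pass the call, which asked for an adjusted p under 0.05 (edgeR quasi-likelihood test, Benjamini-Hochberg over 15728 genes) and a log2 fold change beyond 0.5 in either direction. Over all tested genes 56.2% were called, 25.9% higher and 30.3% lower, so 2 calls among 7 members made a smaller share than the background. With a log2 limit of 1 only Eno3 was called, beside 31.4% of all tested genes, and by the adjusted p alone 4 members were, beside 66.3%. The members' median log2 fold change was -0.15, beside -0.04 over all tested genes. The serum and naive libraries did not overlap for 4 of the members, where 70.5% of all tested genes did not overlap.

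Gpi1 stood at 687, 707 and 714 CPM in the mESC-2i libraries and at 467, 448 and 493 CPM in the mESC-ser libraries. Every serum library lay below every naive library, with a log2 fold change of -0.64 (SE 0.095, adjusted p = 0.000181, edgeR). Tpi1 was at 309, 360 and 277 CPM in mESC-2i and at 252, 255 and 236 CPM in mESC-ser, again without overlap. Its log2 fold change of -0.40 (SE 0.11, adjusted p = 0.0091, edgeR) lay within the fold limit, and it was -0.07 when each library's dependence on gene length and GC content was removed by offsets.

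Pgk1 was at 298, 312 and 266 CPM in mESC-2i and at 292, 299 and 229 CPM in mESC-ser, where the third library of each state, the one that stood apart, was the lowest. The states overlapped, and the log2 fold change was -0.15 (SE 0.12, adjusted p = 0.303, edgeR). Pgam1 was at 347, 368 and 289 CPM in mESC-2i and at 401, 402 and 366 CPM in mESC-ser. Its log2 fold change was 0.16 (SE 0.11, adjusted p = 0.233, edgeR), and 0.54 with a call when the length and GC offsets were used.

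Eno1 was at 782, 820 and 742 CPM in mESC-2i and at 1085, 1055 and 1141 CPM in mESC-ser. The states did not overlap, and the log2 fold change of 0.43 (SE 0.099, adjusted p = 0.00308, edgeR) missed the fold limit, which it passed at 0.51 with the length and GC offsets. Eno3 was low in naive cells, with 30, 57 and 96 counts, or 3.68, 4.75 and 7.48 CPM. It reached 16.4, 20.7 and 15.8 CPM in mESC-ser from 234, 244 and 276 counts. Each serum library lay above each naive one, a 3.11-fold rise (log2 fold change 1.64, SE 0.23, adjusted p = 0.000113, edgeR). Eno2 was at 3.93, 3.84 and 4.05 CPM in mESC-2i and at 2.38, 3.22 and 3.90 CPM in mESC-ser. At 32 to 68 counts a library, the states overlapped and the log2 fold change of -0.36 (SE 0.22, adjusted p = 0.169, edgeR) was not detectable as a difference.

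**Figure D2:**
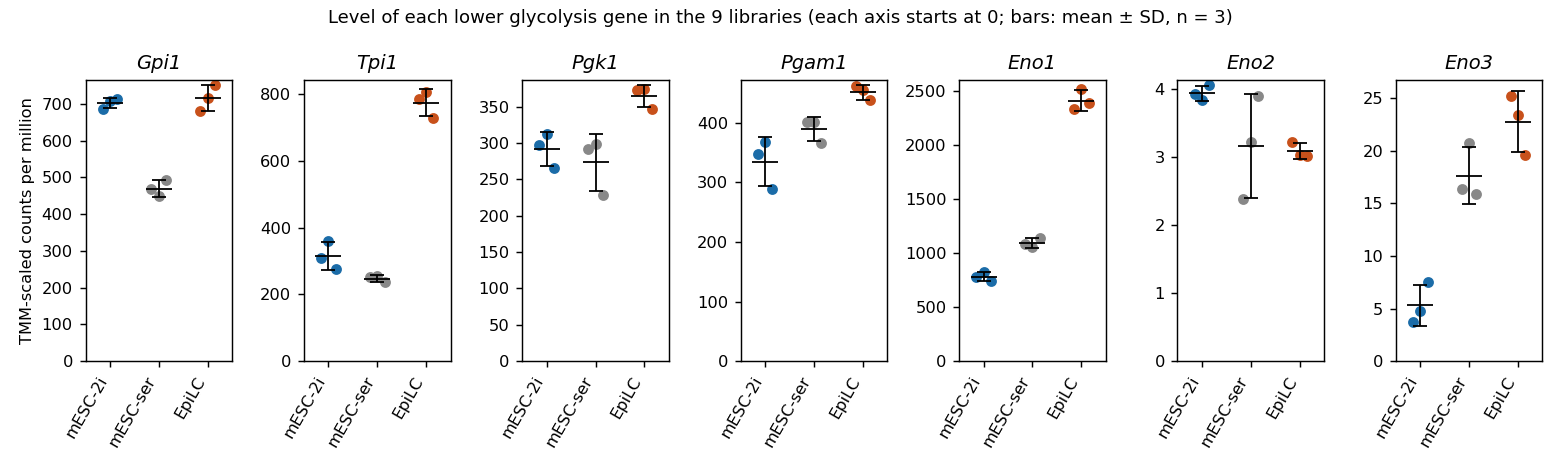
TMM-scaled CPM (vertical axes, each starting at 0) of the 7 members in each library, by culture state (horizontal axes), with 1 point per library and the mean ± SD of 3 libraries in black. Tpi1 and Eno1 lie highest in EpiLC, Eno3 lies lowest in mESC-2i with EpiLC and mESC-ser overlapping, Gpi1 lies lowest in mESC-ser, and Eno2 stays between 2.38 and 4.05 CPM.

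EpiLC against the naive cells they were made from showed a rise of Tpi1, Eno1 and Eno3 and a fall of none of the members. The background share was 69.8% of 15378 genes, made of 32.0% with a rise and 37.8% with a fall. Against it, 3 of 7 members called was a smaller share than the background, and 3 of 7 higher was near it. The same 3 passed a log2 limit of 1, as 48.5% of all tested genes did, and 5 members passed by the adjusted p alone, as 78.9% did. The median log2 fold change of the members was 0.41, beside -0.11 over all tested genes. For 6 members the states did not overlap, against 81.8% of all tested genes.

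Tpi1 reached 786, 808 and 730 CPM in EpiLC, each more than the highest naive library at 360 CPM. This was a 2.43-fold rise (log2 fold change 1.28, SE 0.11, adjusted p = 2.13e-06, edgeR). Eno1 reached 2329, 2516 and 2385 CPM, where no naive library exceeded 820 CPM. It rose 3.04-fold (log2 fold change 1.61, SE 0.10, adjusted p = 2.21e-07, edgeR) and its copies Eno1b and Gm4735, at 1.62 and 1.64, changed by nearly the same log2 fold change. Eno3 reached 25.2, 23.4 and 19.6 CPM from 188, 216 and 156 counts, a 4.13-fold rise with no overlap (log2 fold change 2.05, SE 0.22, adjusted p = 9.49e-06, edgeR).

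Gpi1 was at 681, 716 and 750 CPM in EpiLC, around the naive values, with a log2 fold change of 0.01 (SE 0.092, adjusted p = 0.946, edgeR). With the length and GC offsets it was at 0.30 (adjusted p = 0.00381, edgeR), still within the fold limit. Pgk1 was at 373, 374 and 347 CPM in EpiLC, above all naive libraries. Its log2 fold change of 0.30 (SE 0.095, adjusted p = 0.0136, edgeR) was within the fold limit, whereas Pgk1-rs7 rose by 0.89 and Gm5537 by 0.90. Counted together with these copies, Pgk1 passed the call at 0.62 (adjusted p = 0.000307, edgeR). Pgam1 was at 461, 455 and 437 CPM in EpiLC, also above all naive libraries, with a log2 fold change of 0.41 (SE 0.11, adjusted p = 0.00445, edgeR). Its copies diverged, Pgam1-ps2 rising by 0.77 and Pgam1-ps1 falling by 1.75 on the log2 scale, and the summed counts of Pgam1 and copies passed the call at 0.52 (adjusted p = 0.00116, edgeR). That call was absent with the length and GC offsets, where the summed value was 0.29. Eno2 was at 3.22, 3.04 and 3.02 CPM in EpiLC, below the naive libraries in each case, from 24 to 28 counts. Its log2 fold change of -0.37 (SE 0.19, adjusted p = 0.103, edgeR) did not pass.

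EpiLC against mESC-ser showed 4 of 7 members higher, Gpi1, Tpi1, Pgk1 and Eno1, and none lower. The background share was 73.3% of 15345 genes, made of 35.5% with a rise and 37.8% with a fall. With a log2 limit of 1 Tpi1 and Eno1 were called, beside 51.9% of all tested genes, and by the adjusted p alone 6 members were, beside 84.2%. The median log2 fold change of the members was 0.50, beside -0.07 over all tested genes, and 5 members did not overlap, against 85.7% of all tested genes. The serum and EpiLC values are those given for each library in the preceding paragraphs, and this comparison shares its libraries with the other comparisons.

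Tpi1 rose 3.32-fold (log2 fold change 1.73, SE 0.081, adjusted p = 4.77e-12, edgeR), the largest change among the members here. Eno1 rose 2.34-fold (1.23, SE 0.078, adjusted p = 2.5e-10, edgeR) and Gpi1 1.62-fold (0.69, SE 0.078, adjusted p = 3.61e-07, edgeR). Gpi1 was thus called lower in serum cells than in either N2B27-based culture. Pgk1 was only just called at 0.50 (SE 0.098, adjusted p = 0.000163, edgeR). Without the third mESC-ser library, its lowest at 229 CPM, it stood at 0.39 and was not called, and without the second EpiLC library at 0.49. Summed with its copies it was at 0.90 (adjusted p = 3.13e-07, edgeR), and at 0.61 when the length and GC offsets were added.

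Pgam1 did not overlap between EpiLC and mESC-ser, with a log2 fold change of 0.30 (SE 0.078, adjusted p = 0.00206, edgeR). Its direction turned with the length and GC offsets, to -0.31 (adjusted p = 0.00029, edgeR), and that of Eno3 turned from 0.46 (SE 0.13, adjusted p = 0.00349, edgeR) to -0.25 (adjusted p = 0.0638, edgeR). Without the second mESC-ser library Eno3 was called at 0.58, and without the third EpiLC library at 0.56. Eno2 was level, with a log2 fold change of 0.03 (SE 0.23, adjusted p = 0.894, edgeR).

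**Figure D3:**
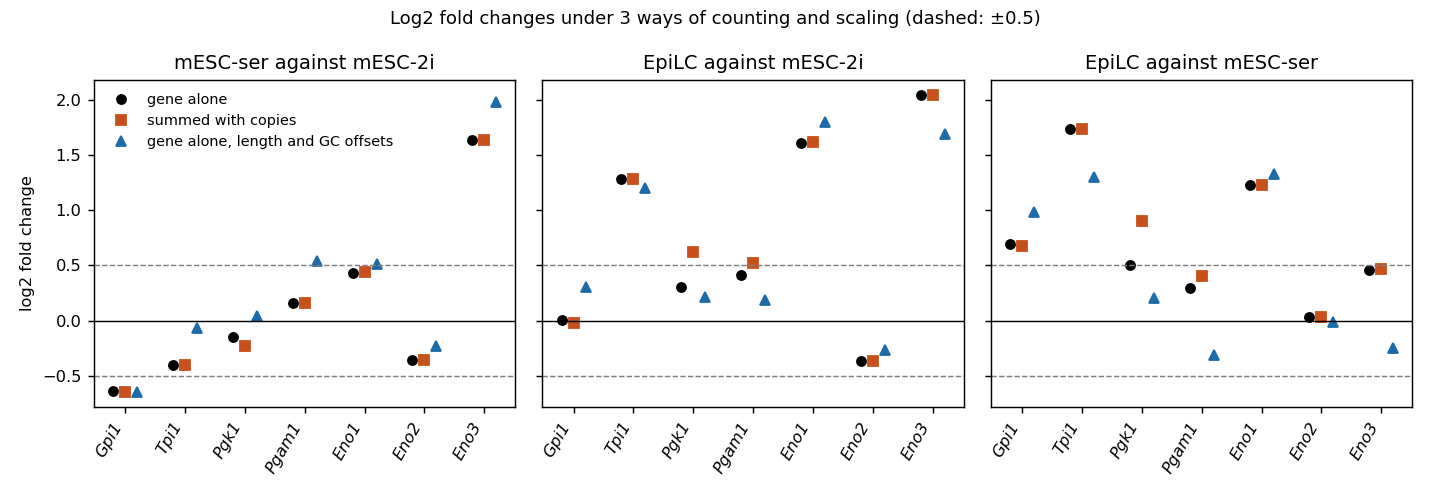
Log2 fold change (vertical axis) of the 7 members (horizontal axis) in the 3 comparisons, with each gene counted alone, summed with its copies, or scaled by length and GC offsets, and dashed lines at the fold limit of 0.5 in either direction. Tpi1 and Eno1 lie above the limit in both EpiLC comparisons in all of these ways, while Pgk1 moves from 0.50 to 0.90 or 0.21 against mESC-ser.

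The changes of the neighbouring enzymes were uneven along the pathway. Aldoa, which splits fructose bisphosphate just before Tpi1, rose by 1.22 (SE 0.11) in EpiLC against mESC-2i and by 1.85 (SE 0.079) against mESC-ser on the log2 scale, and fell by 0.58 (SE 0.11) in mESC-ser against mESC-2i. Gapdh, which acts between Tpi1 and Pgk1, rose by 1.38 (SE 0.10) and 1.69 (SE 0.087) in the EpiLC comparisons and was at -0.26 (SE 0.096) in mESC-ser against mESC-2i, not called. The stretch from Aldoa through Tpi1 to Gapdh and then Eno1 was thus called higher in EpiLC against both stem cell states. Pkm, the pyruvate kinase after enolase, was not called in any comparison, at 0.39, 0.18 and -0.17 for mESC-ser against mESC-2i, EpiLC against mESC-2i and EpiLC against mESC-ser. Copies of these 3 genes were not examined. The members are counted alone in this view, and the unevenness depends on that. Summed with copies, Pgk1 was called at 0.62 and 0.90 in EpiLC against mESC-2i and mESC-ser. Pgam1 summed with copies was called at 0.52 against mESC-2i, but not at 0.29 with the offsets, and was not called against mESC-ser.

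**Figure D4:**
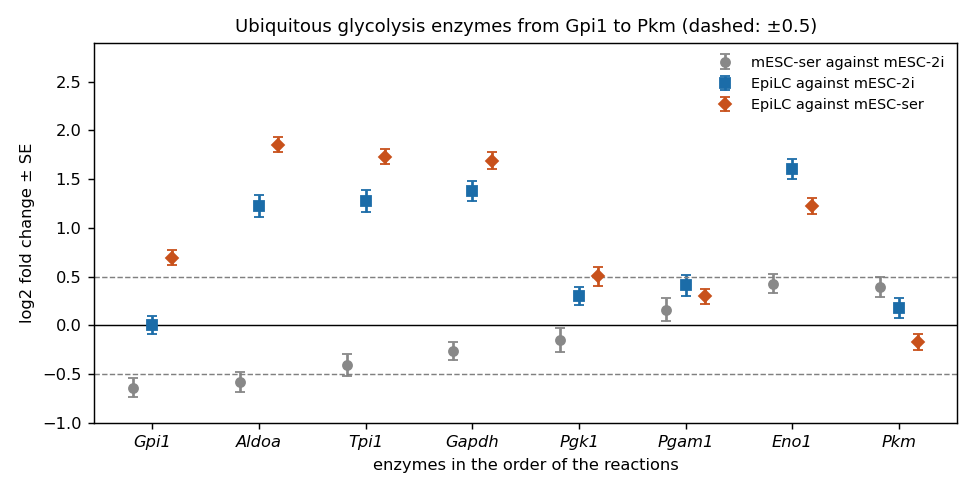
Log2 fold change ± SE (vertical axis) of the widely expressed enzymes from Gpi1 to Pkm in the order of their reactions (horizontal axis) for the 3 comparisons, with dashed lines at 0.5 in either direction. Aldoa, Tpi1, Gapdh and Eno1 lie above 0.5 in both EpiLC comparisons, while Pgam1 and Pkm lie within the limit in all 3. Every gene is counted alone, without its copies.

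Among the 20 other glycolysis enzymes, including tissue-restricted isozymes, 15 were tested in mESC-ser against mESC-2i, with 2 called higher and 6 lower, or 8 called beside 56.2% of all tested genes. The largest rise was Pklr at 2.59, the liver and red cell pyruvate kinase, which reached a mean of 1.77 CPM, and the largest fall was Aldoc at -2.47, an aldolase typical of brain. In EpiLC against mESC-2i 3 of 13 tested enzymes were called higher and 4 lower, beside 69.8% of all tested genes called, led by the phosphofructokinase Pfkl at 1.78 and the hexokinase Hk1 at -2.81. In EpiLC against mESC-ser 7 of 14 were called higher and 3 lower, beside 73.3% of all tested genes called, led by Aldoa and by the hexokinase Hk2 at -2.32. Hk1 and Hk2 thus fell in both comparisons in which Tpi1 and Eno1 rose, although Hk1 was only just called against mESC-ser, at -0.50 (SE 0.10).

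The tissue-restricted enolases were set beside markers of the tissues they are typical of. Of 8 striated muscle markers 2 were at 0 in all mESC-2i libraries, and their summed level, mostly Mylpf, was 64.2 to 88.3 CPM in mESC-2i, 72.2 to 90.5 in mESC-ser and 34.6 to 40.9 in EpiLC. The sum followed Mylpf, and single markers went otherwise. Acta1 was called higher in mESC-ser against mESC-2i (1.86, at means of 3.45 and 13.0 CPM in mESC-2i and mESC-ser) and lower in EpiLC against mESC-ser (-2.02). Des was called higher in EpiLC against mESC-2i (0.57), and Myod1, at 0 in mESC-2i throughout, held 4, 15 and 6 counts in the EpiLC libraries. Of the 4 muscle markers tested in each comparison, 1 was called higher every time, and 1, 1 and 2 were called lower in mESC-ser against mESC-2i, EpiLC against mESC-2i and EpiLC against mESC-ser. In the same order 56.2%, 69.8% and 73.3% of all tested genes were called. The summed level of 8 neuron markers, mostly Tubb3, was 158 to 179 CPM in mESC-2i, 130 to 136 in mESC-ser and 57.9 to 60.4 in EpiLC, with none at 0 in all libraries of a state, while the mean of Eno2 lay between 3.09 and 3.94 CPM. For 8 fibroblast markers the sum was 52.8 to 57.2, 63.5 to 83.2 and 42.3 to 46.4 CPM, and 1 was at 0 in all EpiLC libraries. This sum too held opposite moves, since in EpiLC against mESC-2i Thy1 (3.25) and Dcn (4.08) were called higher and Col1a1 (-3.88) and Col3a1 (-5.82) lower. Of the 6 fibroblast markers tested there, 2 were called higher and 4 lower, beside 69.8% of all tested genes called. Of the 8 neuron markers, 1 was called higher and 4 lower in that comparison, beside 69.8% of all tested genes called. The part of such cells in the enolase levels was not tested.

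RefSeq promoter windows (300 bases around a start site, GRCm38.p6) matched all 7 members. They were searched on both strands for ACGTG, a form of the hypoxia response element core, and for GGGCGG, the GC box, neither of which contains the other. GCGTG, the other form of that core, was not searched for. ACGTG occurred at 2 places in the window of Pgk1 and 1 in that of Pgam1 and in none of the windows of the other 5, where 19.6% of all 32851 promoter windows hold it. GGGCGG occurred 5 times in Pgk1, 3 in Eno1, 2 in Gpi1, 2 in Pgam1 and 1 in Tpi1, and in neither Eno2 nor Eno3, against 35.7% of all windows. The windows of the members that rose most among the abundant ones, Tpi1 (chr6:124814109-124814408, minus strand) and Eno1 (chr4:150236974-150237273, plus strand, the start site nearest most annotated transcripts), are printed with that of Pgk1 (chrX:106186850-106187149, plus strand), with ACGTG or its reverse complement in capitals.
Tpi1: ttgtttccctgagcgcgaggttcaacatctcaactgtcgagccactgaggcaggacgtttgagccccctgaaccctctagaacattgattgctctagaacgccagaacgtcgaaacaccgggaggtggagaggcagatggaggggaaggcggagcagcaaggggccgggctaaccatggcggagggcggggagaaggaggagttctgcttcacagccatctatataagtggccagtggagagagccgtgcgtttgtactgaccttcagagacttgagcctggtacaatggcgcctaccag
Eno1: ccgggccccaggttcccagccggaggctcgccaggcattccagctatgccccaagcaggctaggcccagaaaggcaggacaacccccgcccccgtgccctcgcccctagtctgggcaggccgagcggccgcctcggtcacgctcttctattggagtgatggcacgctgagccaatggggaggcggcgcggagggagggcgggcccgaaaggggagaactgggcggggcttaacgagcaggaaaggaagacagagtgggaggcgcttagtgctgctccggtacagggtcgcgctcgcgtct
Pgk1: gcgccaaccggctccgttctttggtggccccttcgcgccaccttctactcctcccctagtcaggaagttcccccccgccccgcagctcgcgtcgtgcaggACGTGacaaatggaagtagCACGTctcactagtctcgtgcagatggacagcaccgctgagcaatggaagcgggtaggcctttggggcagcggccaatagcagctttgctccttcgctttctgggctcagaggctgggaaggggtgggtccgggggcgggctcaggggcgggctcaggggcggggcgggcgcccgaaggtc
Of the printed windows, those of Tpi1 and Eno1 held no ACGTG and that of Pgk1 held it on both strands. The printed Eno1 window does hold CACGC, the reverse complement of the form GCGTG that was not searched for. Eno1 has 3 RefSeq start sites, and only the window of 1 was searched. A match is a description of the letters in the window only, and its relation to the levels was not tested.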

How the data were processed

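Poly-A RNA of 9 libraries was sequenced as 50 bp single reads with a kit that does not mark strand. Per the labels, the authors trimmed reads with Trim Galore 0.6.6, aligned them to mm10 with HISAT2 2.2.1 and counted genes with Subread 2.0.1, and they deposited raw counts per Ensembl gene. The annotation release and the treatment of reads with several positions are not given in the sources used here. Opposite-strand genes overlap exons of Gpi1 (Gm26762, 741 bases) and Tpi1 (Spsb2, 34 bases), and their reads cannot be told apart from those of the members.

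Of 38293 gene identifiers 36429 matched GENCODE annotation of GRCm38 (95.1%). Counts were tested in R 4.3.3 with edgeR 4.0.16 (TMM scaling, filterByExpr, quasi-likelihood test) on the 6 libraries of each pair. Calls needed both an adjusted p (Benjamini-Hochberg, over all tested genes) under 0.05 and a log2 fold change beyond 0.5 either way. All 7 members passed the filter on low counts in every comparison. CPM were scaled by TMM over all 9 libraries, so they differ slightly from the scaling within a pair. The test was checked on simulated counts with known changes.

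Copies were genes with an exact 50-base match to a coding stretch of a member's protein-coding transcripts, or named as a copy. Matches outside coding sequence, which Gpi1 had with 120 genes and Eno2 with 2 genes through repeats, were left out, which narrows the rule planned. Matching was to annotated transcripts, not to a genome. Length and GC offsets were natural splines with 5 degrees of freedom fitted to each library.

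The named genes are the 7 members, their copies, Gapdh, Aldoa and Pkm, the called gene with the largest rise and fall of the lists of 20 other glycolysis enzymes and 18 branch point and gluconeogenesis enzymes in each comparison, and the 3 genes most correlated with each member. Genes of the pluripotency, muscle, neuron and fibroblast marker lists are named as well, and no rule set which of them are given singly. The members and lists were chosen with earlier results of these data known. Same-numbered mESC-ser and mESC-2i libraries deviated together from their state means (r = 0.14, 0.20 and 0.36). However, mESC-ser library 1 followed mESC-2i library 2 (r = 0.16) at least as closely, so this check does not settle a pairing. The main fits used no pairing, and a replicate block was added as an alternative. The block changed no member's call. Alternatives covered scaling, filters, tools (DESeq2 1.42.0), thresholds, offsets, copies, the block and leaving out each library. With 3 libraries against 3, an exact test of a single value cannot go below p = 0.1, so ranges without overlap are given with no test. Some sequence is not reported here.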

Additional observations from a re-analysis of the deposited data

How the results depend on the processing

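In EpiLC, Tpi1 and Eno1 against both other states and Eno3 against mESC-2i stayed called under every scaling, filter, tool, offset and left-out library tried at the 0.5 limit, and so did Gpi1 and Eno3 in mESC-ser against mESC-2i. The main fit called 2 members in that comparison, beside 8843 genes in all (56.2% of those tested). With length and GC offsets 4 were called, beside 8273 genes, and with a replicate block and these offsets 4, beside 8356. Copies summed and offsets (a setting chosen after seeing the data) also gave 4, beside 8267 genes. By the adjusted p alone 4 were called, beside 66.3% of all tested genes. At a log2 limit of 1 it was 1, beside 4935 genes (31.4%). In EpiLC against mESC-2i 5 members were called when summed with copies, beside 10724 genes, and 5 by the adjusted p alone, beside 78.9% of all tested genes. The main fit called 3, beside 10732 genes (69.8%). In EpiLC against mESC-ser the main fit called 4, beside 11246 genes (73.3% of those tested). Under total-count scaling 2 were called, beside 11489 genes. At a limit of 1 it was 2, beside 51.9% of all tested genes, and by the adjusted p alone 6, beside 84.2%. Leaving out 1 library gave 2 members in mESC-ser against mESC-2i, beside 8581 to 9391 genes called in all. It gave 3 to 4 members in EpiLC against mESC-2i, beside 10608 to 11059 genes, and 3 to 5 in EpiLC against mESC-ser, beside 11183 to 11446.

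Total-count scaling moved the median of all genes from -0.11 to -0.45 in EpiLC against mESC-2i and from -0.07 to -0.41 against mESC-ser, and lowered the share of called genes that were higher from 45.9% to 33.7% and from 48.4% to 37.4%. Under it, in EpiLC against mESC-2i, Gpi1 was at -0.33, Pgk1 at -0.037 and Eno2 at -0.71 with a call, and against mESC-ser Pgam1 was at -0.043, Eno2 at -0.31, Gpi1 at 0.35 and Pgk1 at 0.16, the last pair without a call. The offsets moved the medians to -0.01 and 0.07.

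Directions also turned for values that were not called. With the offsets Pgk1 was at 0.044 in mESC-ser against mESC-2i (0.039 with the block added). Gpi1 in EpiLC against mESC-2i was at -0.011 with upper quartile scaling, -0.013 with no filter, -0.052 with at least 10 counts in every library, -0.020 summed with copies and -0.017 (without EpiLC replicate 3) to 0.056 with 1 library left out. In EpiLC against mESC-ser Pgam1 was at -0.31 with offsets, -0.31 with block and offsets and -0.20 with copies summed and offsets, and Eno3 was at -0.25, -0.26 and -0.25. Eno2 there was at -0.052 with no filter, -0.040 with at least 10 counts, -0.035 with all 9 libraries in 1 fit, -0.012, -0.0038 and -0.012 with offsets, with block and offsets and with copies and offsets, and -0.15 (without mESC-ser replicate 1) to 0.24 with 1 library left out. Pgam1 in EpiLC against mESC-2i was called at 0.52 without mESC-2i replicate 2. Pgk1 in EpiLC against mESC-ser lost its call under 9 alternatives, at 0.16 to 0.49. The cause was not tested.

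Same-numbered EpiLC libraries gave r = 0.02, 0.13 and 0.12 with mESC-2i, and 0.01, 0.02 and 0.04 with mESC-ser, which does not settle a pairing either. A replicate block gave 10759 called genes and 3 members against mESC-2i and 11207 called genes and 4 members against mESC-ser. Counts of 24 to 68 limit Eno2, and 30 to 96 limit Eno3 in mESC-2i.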

Other observations

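Enzymes that draw on or refill the same intermediates changed in both directions. Of 18 branch point and gluconeogenesis enzymes, 16 were tested in each comparison. In mESC-ser against mESC-2i 4 were called higher and 7 lower (11 of 16, beside 56.2% of all tested genes), with the largest rise in Gfpt2, which starts the hexosamine pathway, at 1.37 and the largest fall in Pck2, the mitochondrial phosphoenolpyruvate carboxykinase, at -1.66. In EpiLC 9 were called higher and 2 lower against mESC-2i (11 of 16, beside 69.8% of all tested genes), led by the gluconeogenic phosphatase Fbp1 at 3.15 and by Gfpt1 at -1.46, and 10 higher and 4 lower against mESC-ser (14 of 16, beside 73.3%), led by Pck2 at 2.96 and Gfpt1 at -1.93. The list's median log2 fold changes were -0.31, 0.75 and 1.00, beside -0.04, -0.11 and -0.07 over all tested genes.

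The genes whose log2 CPM followed each member most closely over the 9 libraries, as a description of libraries that share 3 states, were Pltp, Bcar3 and Slc27a3 for Gpi1 (r = 0.99 for each) and Psmb5, Gm6807 and Polr2f for Tpi1 (r = 0.999 for each). For Pgk1 they were Pafah1b2, Cd151 and Psma6 (r = 0.99, 0.98 and 0.98), and for Pgam1 Cct7, Glipr2 and Gm17383 (r = 0.98 for each). Eno1 was followed by its own copies Eno1b and Gm4735 and by Cdk2ap1 (r = 0.999 for each), Eno2 by Selenon, Tbc1d17 and Klf13 (r = 0.95, 0.91 and 0.88), and Eno3 by Vwa2, Parp12 and Mto1 (r = 0.99, 0.98 and 0.98). Of 11190 genes compared, 1610 exceeded r = 0.95 with Tpi1 and 710 with Eno1, against 136 with Gpi1, 123 with Eno3, 77 with Pgk1 and 60 with Pgam1, so for Tpi1 and Eno1 the leading genes were 3 among many.

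Between members, r over the 9 libraries ran from -0.67 for Pgam1 and Eno2 to 0.88 for Tpi1 and Pgk1. Some copies went against their parent gene in EpiLC. Pgam1-ps1 held 62, 69 and 71 counts in EpiLC, where the mESC-ser libraries held 561, 473 and 612 and the mESC-2i libraries 185, 388 and 342, and Gm16103, a copy of Eno1, fell by 1.09 on the log2 scale in EpiLC against mESC-ser where Eno1 rose by 1.23. Both share only a small part of the parent's coding stretches, 27.6% for Pgam1-ps1 and 1.08% for Gm16103, whereas Pgam1-ps2 and Gm4735 share 100% and 75.1%.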
